A study of Mus musculus with 7 samples.

Results

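Integrins are the main receptors by which cells hold on to the extracellular matrix. Each is a heterodimer of an alpha and a beta subunit that binds matrix outside the cell and, through adaptor proteins such as talin and parvin, the actin cytoskeleton inside. In liver, hepatic stellate cells, sinusoidal endothelial cells and cholangiocytes use them to sense collagen, laminin and fibronectin, and integrins that hold Itgav can release active TGFβ from its latent complex, a step known to feed stellate cell activation. Described here are 10 genes for such subunits, chosen by symbol as the collagen, laminin and fibronectin receptors and the TGFβ-activating integrins, of 55487 genes in the count table. They are 7 alpha subunits (Itga1, Itga2, Itga5, Itga6, Itga8, Itga9 and Itgav) and 3 beta subunits (Itgb1, Itgb5 and Itgb8).

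RNA came from precision-cut liver slices (PCLS) of healthy male Balb/c mice, collected on day 3 of culture in Williams' medium E. The 3 CTR libraries are from slices kept without valproic acid sodium salt (VPA), an inhibitor of class I histone deacetylases, and the 4 VPA libraries from slices kept in 2.5 mM VPA. No library carries a genetic change. The methods give a range of ages for the mice, which the labels tie to no library. A slice holds all cell types of the liver. The methods count each different liver as 1 biological repeat, but the labels tie no library to a mouse and do not say how many slices it holds, so p-values measure the spread between these libraries. The labels number the slice cultures 71, 72 and 74 in CTR and 71 to 74 in VPA, and neither source says that a number marks 1 liver. The question was which transcripts differ when VPA is present.

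The libraries held 1400887 to 4773750 counts on genes. Fewer genes had a count in the VPA libraries (14359 to 16761) than in any CTR library (17744 to 19756). VPA replicate 2, with 3102450 counts, had 15241 such genes, while CTR replicate 3, with 1743675 counts, had 17744. The part of this in the levels below, zeros included, was not tested. The 10 subunits together took 1263 to 2369 counts in the CTR libraries and 655 to 1568 in the VPA libraries. Levels are given as CPM, the count relative to the library size after TMM normalization, which scales each library by the bulk of its genes. Where a library had no count of a gene, a floor of 3 counts was taken as the upper limit. That floor lay between 0.591 and 2.41 CPM and takes in counting error alone. The kit reads the 3′ end of each RNA, so counts should not grow with the length of a gene. Other differences between genes in how fully their RNA is counted were not tested. Orders, shares and ratios between genes below carry that limit. The tissue carried hepatocyte markers, at uneven levels. The 12 hepatocyte markers summed to 8189 to 22491 CPM in CTR and 5544 to 19082 CPM in VPA libraries, with none at 0 throughout. Trf alone held 1758 to 8931 CPM, while Cps1 did not pass 22.9 CPM and Tat did not pass 4.61 CPM. In some libraries Cps1, Tat, Cyp2e1 or F2 had no count. Adgre1 and Marco of the macrophage list and Sctr and Muc1 of the cholangiocyte list had no count in any library. Of the 10 subunits, 7 had enough counts for the main test, that of edgeR, and Itga5, Itga8 and Itgb8 did not. Below, genes called tested are those in that test.

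None of the 7 tested subunits passed edgeR's quasi-likelihood test of VPA against CTR slices, with p-values adjusted over 10876 genes and a threshold of 0.05. In that test 0.00919% of all genes passed. At an unadjusted p under 0.05, 0 of the 7 passed, where 8.28% of all genes did (4.62% lower and 3.65% higher with VPA). DESeq2 called 0 of the 9 subunits to which it gave an adjusted p, where it called 1.01% of all such genes (0.754% lower with VPA). The log2 fold change was below 0 for 6 of 7 subunits, where 54.2% of all genes tested had one, and above 0 for Itgb5. It had a median of −0.17, beside a median of −0.06 over all genes tested. The exact permutation test on the log2 CPM of each of the 10 subunits, which with 3 libraries against 4 cannot give a p below 0.0286, gave values between 0.143 and 1.

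**Figure D1:**
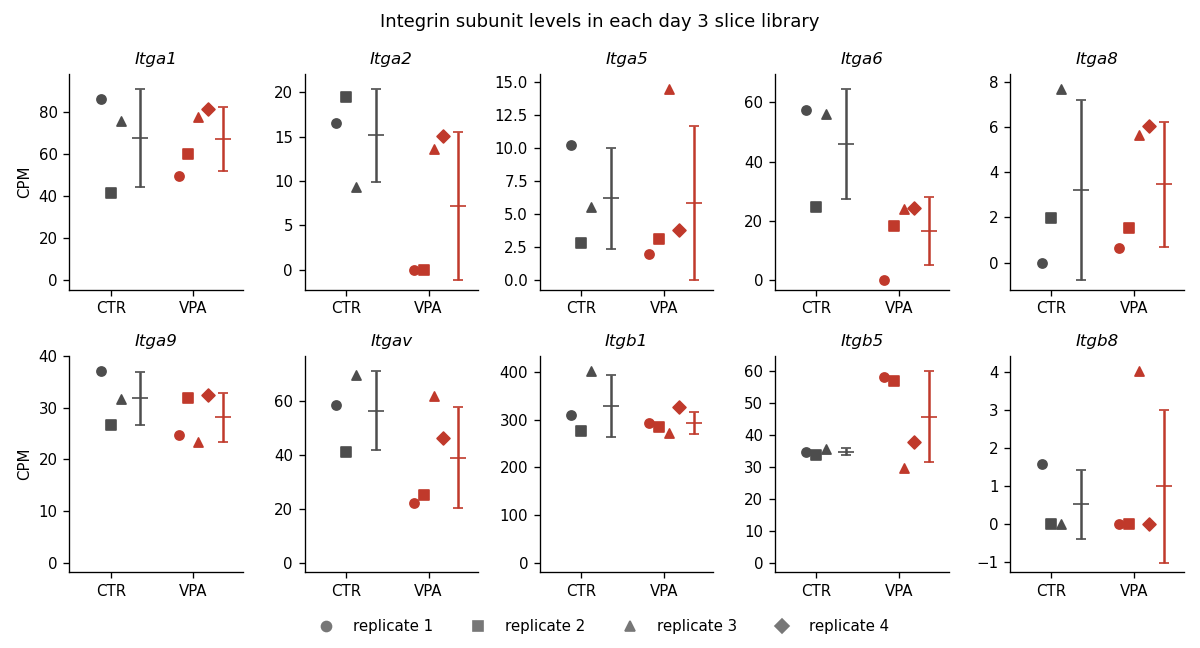
CPM (y axis, linear, a separate scale for each gene) of the 10 integrin subunits in 3 CTR and 4 VPA libraries, 1 symbol per library; the bars beside the points are the mean and SD. Itga6 is the only panel in which all VPA points lie below all CTR points, and Itgb1 has the highest level, between 271 and 401 CPM.

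Itgb1 (ENSMUSG00000025809, chromosome 8 of GRCm38 from 128685654 to 128733200, + strand) encodes the beta subunit with which all 7 of these alpha subunits can pair. It was the most abundant of the 10, at 311, 276 and 401 CPM in CTR replicates 1 to 3 and 292, 285, 271 and 326 CPM in VPA replicates 1 to 4. Of the VPA libraries 3 lay within the CTR range and replicate 3 lay just under it. The means were 329 ± 64.8 CPM (SD, n = 3) and 294 ± 23.3 CPM (SD, n = 4), a log2 fold change of −0.16 (SE 0.164, adjusted p = 0.908). The 95% interval of the fold ran from 0.686 to 1.16, so that, of the 7, Itgb1 was the one whose difference was best bounded.

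Itga1 and Itga2 pair with Itgb1 as the collagen receptors, Itga1 with a preference for the collagen IV of basement membranes and Itga2 for fibrillar collagen. They are neighbours on the − strand of chromosome 13, Itga2 (ENSMUSG00000015533) from 114833081 to 114932100 and Itga1 (ENSMUSG00000042284) from 114953096 to 115101964, with 20995 bases between them. Itga1 was the most abundant alpha subunit. Its level was 86.3, 41.6 and 75.7 CPM in CTR replicates 1 to 3 and 49.6, 60.0, 77.9 and 81.6 CPM in VPA replicates 1 to 4. All 4 VPA libraries lay inside the CTR range. The log2 fold change was −0.01 (SE 0.302, adjusted p = 0.998), a value so near 0 that its sign turned with upper quartile normalization, with a 95% interval of the fold from 0.610 to 1.61. The gene Gm49395 overlaps exons of Itga1 on the same strand, but it had 1 count in all libraries together. Itga2 was low, at 16.5, 19.5 and 9.32 CPM in the CTR libraries. In the VPA libraries it had no count in replicates 1 and 2 and stood at 13.6 and 15.1 CPM in replicates 3 and 4, inside the CTR range. The empty libraries allow up to 1.96 and 0.922 CPM. VPA replicate 2, without a count of Itga2, was the deepest VPA library, and replicate 3, with 17 counts of it, the shallowest. VPA replicates 1 and 2 also had the fewest genes with a count, 14359 and 15241, against 16216 and 16761 in replicates 3 and 4. The part of depth or of missing genes in these zeros was not tested. Its log2 fold change of −1.11 had an SE of 1.49 (adjusted p = 0.937), and a 95% interval of the fold from 0.0420 to 5.13 takes in both directions. With limma-voom the log2 fold change was −4.13 (adjusted p = 0.286), and with each library left out in turn −1.81 to −0.67. With the replicate number as a block it was −4.41. Replicate number 4 occurs in VPA alone, so with that block VPA replicate 4, at 15.1 CPM, does not enter the difference.

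Itga6 (ENSMUSG00000027111, chromosome 2 from 71745616 to 71858416, + strand), a laminin receptor subunit that pairs with Itgb1 or Itgb4, was the one subunit whose groups did not overlap. It had 57.5, 24.6 and 55.9 CPM in CTR replicates 1 to 3. In VPA replicates 1 to 4 it had 0, 18.1, 24.1 and 24.2 CPM. The 0 in VPA replicate 1 allows up to 1.96 CPM, and the lowest CTR library exceeded the highest VPA library by less than 1 CPM. The groups did not overlap with CPM of the plain library totals either. Such a separation downwards was found for 7.41% of all genes tested (4.44% upwards), and 1 of 7 subunits is near that background. The means were 46.0 ± 18.5 CPM (SD, n = 3) and 16.6 ± 11.4 CPM (SD, n = 4), with a log2 fold change of −1.47 (SE 0.960, adjusted p = 0.794). Without VPA replicate 1 the log2 fold change was −1.05 (adjusted p = 0.631), and with the slice culture number as a block it was −0.96 (adjusted p = 0.564). Number 73 belongs to VPA replicate 1 alone, so the block also takes this library out of the difference, and these values are not separate checks. On the log2 CPM scale the exact permutation p was 0.143. Itgb4, the partner of Itga6 in epithelia, had at most 6.58 CPM in any library and was too low for the edgeR test (DESeq2 adjusted p = 0.937).

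Endothelial cells and cholangiocytes are known to carry Itga6 in liver, and their markers were summed beside it. The 12 endothelial markers, led by Kdr, a VEGF receptor, and Eng, a TGFβ co-receptor, summed to 474 to 552 CPM in the CTR libraries and 159 to 410 CPM in the VPA libraries, with each of the 4 under the CTR range (exact permutation p = 0.0571). The sums in VPA replicates 1 to 4 were 159, 410, 169 and 346 CPM. Of the 11 endothelial markers tested 9 were lower and 2 higher (median −0.61 on the log2 scale). With edgeR none passed at an adjusted p under 0.05, and 1 was lower at an unadjusted p under 0.05. Over all genes tested 54.2% were lower, and 4.62% were lower at that unadjusted p. In 5 of the 11 the groups did not overlap, each lower with VPA, beside the 7.41% of all genes. The angiopoietin receptor gene Tek, 1 of these 5, had 13.0 to 16.4 CPM in the CTR libraries and no count in any VPA library (edgeR adjusted p = 0.239, DESeq2 adjusted p = 9.6e-05). The 12 cholangiocyte markers, led by Sox9 and the tight junction gene Cldn4, summed to 192 to 308 CPM and 145 to 210 CPM, with 3 of 4 VPA libraries under the CTR range (exact permutation p = 0.0571). Cldn4 had 197, 167 and 105 CPM in CTR and 18.3, 45.8, 45.0 and 35.5 CPM in VPA libraries. Its log2 fold change was −2.11 (edgeR adjusted p = 0.142, DESeq2 adjusted p = 9.6e-05). Sox9 was above all CTR libraries in 3 of 4 VPA libraries. Of the 4 cholangiocyte markers tested 2 were higher and 2 lower (median −0.02 on the log2 scale). The 12 hepatic stellate cell markers, led by Ecm1 and Rgs5, overlapped between the groups, with 219 to 499 CPM and 240 to 509 CPM. Their part in the level of any integrin subunit was not tested, and in bulk RNA fewer cells of a type and less RNA per cell cannot be told apart. CTR replicate 2 had the lowest stellate cell sum of all 7 libraries. Of the CTR libraries it also had the lowest endothelial and hepatocyte sums. Its cholangiocyte, macrophage, smooth muscle and mesothelial, and platelet and lymphocyte sums were the highest of that group. Within the CTR group replicate 2 was also lowest in Itga1, Itga5, Itga6, Itga9 and Itgav, and with TMM but not with plain library totals in Itgb1 and Itgb5. It had the highest Itga2 of all 7 libraries, at 19.5 CPM.

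The remaining lists were sparse or spread widely. Macrophage markers, led by Cd68 and Lyz2, summed to 334 to 477 CPM in CTR and 346 to 614 CPM in VPA libraries. Smooth muscle and mesothelial markers, with Cnn1 and Myh11 on top, summed to 51.5 to 53.6 CPM and 11.7 to 81.0 CPM. Of 8 platelet and lymphocyte markers 5 had no count in any library, and the sum, led by Pf4 and Cd3e, did not pass 27.4 CPM. Trf and Ahsg led the hepatocyte list.

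Itgav (ENSMUSG00000027087, chromosome 2 from 83724397 to 83806916, + strand) is the alpha subunit of the vitronectin receptors and of the integrins that release TGFβ. It stood at 58.3, 40.8 and 69.6 CPM in CTR replicates 1 to 3 and at 22.2, 25.2, 61.8 and 46.1 CPM in VPA replicates 1 to 4. VPA replicates 1 and 2 lay below all CTR libraries and replicates 3 and 4 lay within their range. With plain library totals replicate 4 also lay below, at 42.0 CPM against 43.4 CPM in the lowest CTR library. The log2 fold change was −0.54 (SE 0.401, adjusted p = 0.848), with a 95% interval of the fold from 0.360 to 1.31. Gm13684, which overlaps Itgav on the other strand, had 3 counts in all.

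Itgb5 (ENSMUSG00000022817, chromosome 16 from 33829665 to 33949338, + strand) pairs with Itgav alone and binds vitronectin. It was tight in the CTR libraries, at 34.7, 33.5 and 35.6 CPM. The VPA libraries had 58.1, 56.9, 29.7 and 37.8 CPM, so that replicates 1, 2 and 4 lay above and replicate 3 below all CTR libraries. With plain library totals replicate 4, at 34.4 CPM, was within the CTR range of 32.1 to 37.3 CPM. The log2 fold change was 0.40 (SE 0.288, adjusted p = 0.837), the only positive one among the tested subunits. VPA replicates 1 and 2, which were lowest in Itgav, were highest in Itgb5, and held 2.62 and 2.26 Itgb5 counts for each Itgav count. The other 5 libraries held 0.481 to 0.821. Itgb8 (ENSMUSG00000025321, chromosome 12 from 119158022 to 119238802, − strand), whose dimer with Itgav is a known activator of latent TGFβ, was close to absent. It had 4 counts in CTR replicate 1, 5 in VPA replicate 3 and none in the other libraries, and a difference was not detectable at this depth.

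Itga9 (ENSMUSG00000039115, chromosome 9 from 118606690 to 118901003, + strand), which with Itgb1 binds tenascin C and osteopontin, varied least among the alpha subunits. Its level was 37.0, 26.6 and 31.8 CPM in the CTR libraries and 24.8, 32.0, 23.3 and 32.5 CPM in the VPA libraries. VPA replicates 1 and 3 lay just below the CTR range and the other two within it. The log2 fold change was −0.17 (SE 0.266, adjusted p = 0.945).

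The RGD-binding subunits Itga5 and Itga8 had too few counts for the edgeR test. DESeq2 gave them an unadjusted p of 0.911 and 0.953, and the exact permutation p was 0.743 and 0.686. Itga5 (ENSMUSG00000000555, chromosome 15 from 103344286 to 103366763, − strand), the classical fibronectin receptor with Itgb1, had 26, 14 and 10 counts in the CTR libraries and 3, 10, 18 and 5 counts in the VPA libraries. In CPM this is 10.2, 2.76 and 5.48 against 1.96, 3.07, 14.5 and 3.78, and the highest and the lowest value both came from VPA libraries. Itga8 (ENSMUSG00000026768, chromosome 2 from 12106632 to 12301922, − strand), a nephronectin receptor known from stellate and smooth muscle cells, had 0, 10 and 14 counts in CTR and 1, 5, 7 and 8 counts in VPA libraries. All 4 VPA libraries lay between the lowest and the highest CTR library. E030013I19Rik, on the other strand of Itga8, had no count.

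**Figure D2:**
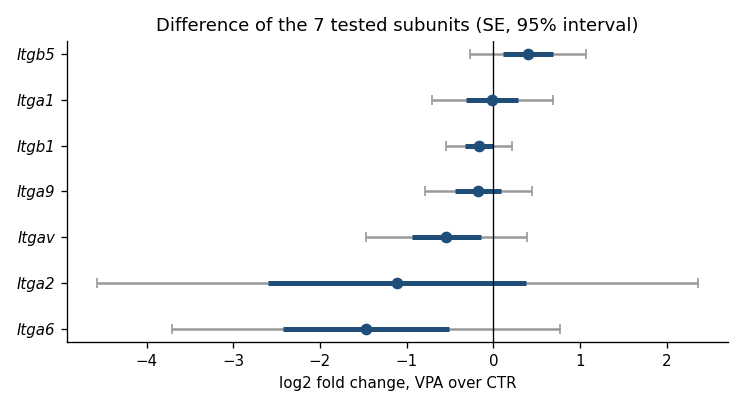
Log2 fold change of VPA over CTR (x axis) for the 7 tested subunits (y axis), with the SE as a thick bar and the 95% interval as a thin bar, from edgeR. All 7 intervals hold 0, and that of Itgb1, from −0.54 to 0.22, is the narrowest while that of Itga2, from −4.57 to 2.36, is the widest.

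Ordered by their mean over the 7 libraries, the levels were Itgb1 (309 CPM), Itga1 (67.5), Itgav (46.3), Itgb5 (40.9), Itga9 (29.7), Itga6 (29.2), Itga2 (10.6), Itga5 (5.96), Itga8 (3.36) and Itgb8 (0.799). Itgb1 exceeded Itga1, and Itga1 exceeded Itgav, in 7 of 7 libraries. Itgb1 was the only subunit whose lowest library, at 271 CPM, was above the highest library of the next, at 86.3 CPM. The other neighbours changed places between libraries. The first of each pair was higher in 6 of 7 libraries for Itgb5 and Itga9, Itga6 and Itga2, and Itga8 and Itgb8, in 5 of 7 for Itgav and Itgb5 and for Itga5 and Itga8, and in 4 of 7 for Itga9 and Itga6 and for Itga2 and Itga5. Their ranges overlapped, so none of these orders exceeds the spread. By group means some orders turned. Itgav was above Itgb5 in CTR (56.2 against 34.6 CPM) and under it in VPA libraries (38.8 against 45.6 CPM). Itga6 was above Itga9 in CTR (46.0 against 31.8 CPM) and under it in VPA libraries (16.6 against 28.1 CPM). Itga6, not a neighbour of Itgb5 in the pooled order, was above it in CTR (46.0 against 34.6 CPM) and under it in VPA libraries (16.6 against 45.6 CPM). These turns were not tested.

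The make-up of the alpha subunits does not depend on how libraries are scaled, and is given as a description with no test. Itga1 took 32.4%, 26.3% and 29.6% of the alpha subunit counts in CTR replicates 1 to 3, and 50.0%, 42.9%, 35.3% and 39.0% in VPA replicates 1 to 4. All 4 VPA libraries lay above all CTR libraries in this share, though in CPM all 4 lay inside the CTR range. Itga6 took 21.6%, 15.6% and 21.9% in CTR and 0%, 13.0%, 10.9% and 11.6% in VPA libraries, all 4 below, as in CPM. The shares of Itga2, Itga5, Itga8, Itga9 and Itgav overlapped between the groups. How often such shares separate over other genes was not computed, so these separations have no background beside them. The shares of a library sum to its whole, so a lower share of Itga6 raises the others. Itgav kept a share of 21.9% to 27.3% in CTR and 18.0% to 28.0% in VPA libraries. Itgb1 was 89.2% to 91.8% of the beta subunit counts in CTR and 83.4% to 89.6% in VPA libraries, with Itgb5 as nearly all of the rest. For each count on the alpha subunits there were 1.17 to 1.75 counts of Itgb1 in CTR and 1.23 to 2.95 in VPA libraries, which overlap.

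**Figure D3:**
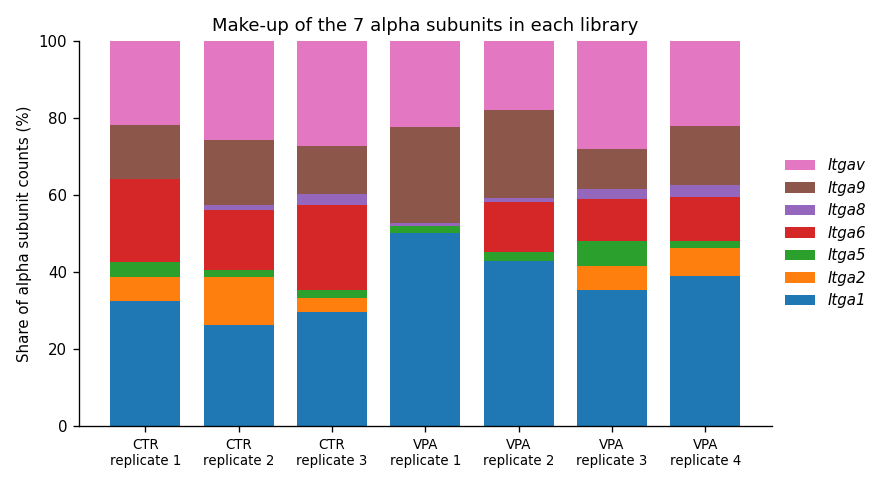
Share of each alpha subunit in the summed counts of the 7 alpha subunits (y axis, percent) in each library (x axis). Itga1, at the bottom, holds 26.3% to 32.4% in CTR and 35.3% to 50.0% in VPA libraries, while Itga6 holds 15.6% to 21.9% and 0% to 13.0%.

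The other genes of the pathway were read from lists. Of 16 further integrin subunits 6 were tested, 5 lower and 1 higher with VPA (median log2 fold change −0.72), and none passed at either threshold. Itgb3, another partner of Itgav, had 29.0 ± 8.32 CPM (SD, n = 3) in CTR and 17.5 ± 6.17 CPM (SD, n = 4) in VPA libraries (log2 fold change −0.72, adjusted p = 0.728). The leukocyte subunit Itgam had 8.67 to 10.2 CPM in CTR libraries and 0 to 4.01 CPM in VPA libraries (adjusted p = 0.726). The laminin receptor subunit Itga7 stood at 7.86 ± 5.52 CPM and 18.0 ± 4.50 CPM (log2 fold change 1.17, adjusted p = 0.692). Exons of Itgam overlap Gm49368 and those of Itga7 overlap Mettl7b, so their counts are uncertain.

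On the inner side of the membrane, 27 of 30 adaptor and signalling genes were tested, 19 lower and 8 higher (median −0.29). None passed at an adjusted p under 0.05, and 4 were lower at an unadjusted p under 0.05. Over all genes tested 54.2% were lower, 4.62% were lower at that unadjusted p, and 7.41% had all VPA libraries under the CTR range. Ilk, whose product links beta subunits to parvin, had no count in any library, and its exons overlap Taf10 and Rrp8 on the other strand. Actn1, which crosslinks actin at adhesions, had 304, 278 and 283 CPM in CTR and 188, 187, 222 and 153 CPM in VPA libraries. The highest VPA library was under the lowest CTR library (log2 fold change −0.62, SE 0.154, adjusted p = 0.328). Parva, a parvin that binds ILK, had 43.8 ± 3.67 CPM (SD, n = 3) and 18.7 ± 5.84 CPM (SD, n = 4), again without overlap (log2 fold change −1.23, SE 0.311, adjusted p = 0.328). Flna, which ties integrin tails to actin, had 183 ± 19.2 and 112 ± 22.8 CPM (log2 fold change −0.71, adjusted p = 0.393).

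On the outer side of the membrane are the ligands. Of 22 collagen and laminin genes 18 were tested, 15 lower and 3 higher (median −0.70), with 6 lower at an unadjusted p under 0.05 and none at an adjusted p under 0.05. Col1a1 had a log2 fold change of −1.66 (SE 0.239, adjusted p = 0.112), Col1a2 of −1.58 (SE 0.304, adjusted p = 0.213) and Col4a1 of −0.70 (SE 0.138, adjusted p = 0.227), each without overlap of the groups. The shares over all genes tested are again 54.2% lower, 4.62% lower at an unadjusted p under 0.05 and 7.41% without overlap downwards. With DESeq2 the adjusted p of these genes was 4.4e-07, 0.000539 and 0.00977. Itga1, a receptor subunit for the product of Col4a1, had no such separation. Col4a1 was named by its small p in this comparison and Itga1 by its symbol, so setting them side by side is no test. The 12 tested of 16 RGD and other glycoprotein ligands were split, 7 lower and 5 higher (median −0.17). Tnc, which encodes tenascin C, had 54.4, 59.9 and 51.0 CPM in CTR and 20.9, 28.3, 19.3 and 28.7 CPM in VPA libraries (log2 fold change −1.18, SE 0.239, adjusted p = 0.244, and 0.0375 with DESeq2). Its receptor subunit Itga9 differed by −0.17. Mfge8, a bridge between dying cells and Itgav integrins, had 375 ± 117 CPM (SD, n = 3) and 534 ± 168 CPM (SD, n = 4), and Emilin1 34.3 ± 10.4 and 18.1 ± 10.8 CPM, both with overlap.

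**Figure D4:**
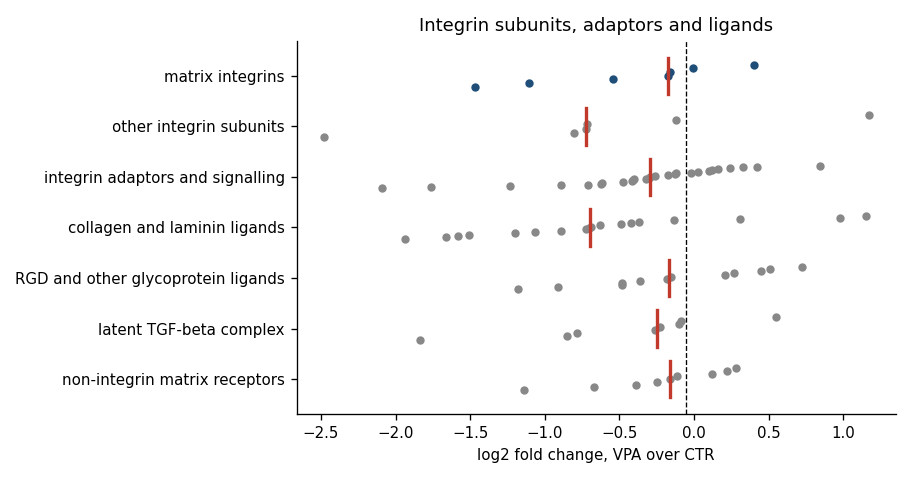
Log2 fold change of VPA over CTR (x axis) for the tested genes of 7 lists (y axis), 1 point per gene, with the median of each list as a red bar and the median of all genes tested, −0.06, as a dashed line. The median is −0.17 for the matrix integrins (blue) and −0.70 for their collagen and laminin ligands.

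For the latent TGFβ complex, on which Itgav integrins act, 8 of 10 genes were tested, 7 lower and 1 higher (median −0.25), and none passed at either threshold. Ltbp4, a latent TGFβ binding protein, had 15.6 ± 7.01 CPM (SD, n = 3) and 4.39 ± 4.83 CPM (SD, n = 4). The ligand Tgfb2 had 24.4 ± 7.50 and 14.3 ± 8.47 CPM, and the receptor Tgfbr2 had 14.9 ± 9.16 and 21.6 ± 6.93 CPM. Of 12 matrix receptors that are no integrins 9 were tested, 6 lower and 3 higher (median −0.16). At an unadjusted p under 0.05 1 of the 9 was lower, a share near the 8.28% of all genes (4.62% lower). This was the hyaluronan receptor Cd44, with 62.3, 58.5 and 63.6 CPM in CTR and 32.6, 37.8, 49.8 and 34.0 CPM in VPA libraries (log2 fold change −0.67, SE 0.212, adjusted p = 0.458). The syndecan Sdc1 had a log2 fold change of −0.39 and the laminin receptor dystroglycan, Dag1, of 0.22.

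Among 6391 genes with a mean of at least 20 CPM, those whose log2 CPM followed Itgb1 most closely over the 7 libraries were Zdhhc9 (Pearson's r = 0.950), Rbck1 (0.940), Rras2 (0.935), Pank1 (0.932) and Cd302 (0.929). The points share library, depth and scaling, and the values are a description.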

How the data were processed

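Reads of 3′ end libraries from 7 samples were, per the labels and the paper's methods, sequenced as single ends, trimmed and mapped by the authors with STAR to GRCm38 (mm10 in the submitters' processing notes), with StringTie named for assembly. The authors deposited raw counts of reads per Ensembl gene. The counting program and its use of strand are not given in the sources used here. Symbols and coordinates came from GENCODE M21, which named 55141 of 55487 genes.

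R 4.3.3 with edgeR 4.0.16 was used (TMM, filterByExpr, robust quasi-likelihood test, condition as the only term, Benjamini-Hochberg adjustment over 10876 genes, threshold 0.05). Log2 CPM had a prior count of 2. Single levels were compared by a two-sided exact permutation test over 35 groupings. Alternatives were DESeq2 1.42.0, limma-voom (limma 3.58.1), other normalizations and filters, blocks and leaving out each library. The code was tested on simulated data. Replicate pairs within a group differed by more than counting noise (chi-square per degree of freedom 14.7 to 27.3).

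The subunits and lists were chosen with earlier results of these data known. Named genes are the 10 subunits, the 3 genes of smallest p of each pathway list, the 2 most abundant of each marker list and the 5 genes most like Itgb1. Itgb4, Ilk, Tek, Spp1 and the hepatocyte markers Cps1, Tat, Cyp2e1 and F2 are named beside these after their values were seen. So are Adgre1, Marco, Sctr and Muc1, which had no count, and genes that overlap a subunit or another named gene.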

Additional observations from a re-analysis of the deposited data

Results flagged for a closer look

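In the VPA group of 4 libraries, 8 of 38 measures had a library far from the rest. Chance marks about 1 in 20 such groups, but these measures are not independent, so the count cannot be set against that rate. A level and a share of the same gene are 1 departure, as are both count totals of VPA replicate 2, and Itgb8 had to be marked, being at 0 in the other 3 libraries. VPA replicate 3 stood apart for Itga5, with 14.5 CPM against 1.96 to 3.78 CPM in the other VPA libraries, and for the share of Itga5 in the alpha subunit counts, at 6.55%. It was also the VPA library with counts of Itgb8 (4.01 CPM, or 1.32% of the beta subunit counts). VPA replicate 1 stood apart for the share of Itga6 in the alpha subunit counts, at 0% against 10.9% to 13.0%. VPA replicate 2 had 3102450 counts on genes, which is far above the other VPA libraries, and 1568 counts on the 10 subunits. VPA replicate 4 had the highest sum of macrophage markers, 614 CPM.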

How the results depend on the processing

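No subunit was called under any of the 17 alternatives, so the count of 0 was the same in each. At an unadjusted p under 0.05 the count was 1 with limma-voom (Itga2, adjusted p = 0.286), 1 with the replicate block by slice culture (Itga6, log2 fold change −0.96, adjusted p = 0.564) and 0 to 1 with each library left out. Over all genes the count of 1 called became 154 with DESeq2, 10 with no filter, 0 with the replicate block by slice culture, 0 by replicate number, and 0 to 2 with each library left out; the cause was not tested.

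The slice culture and replicate numbers were treated as numbers only, since libraries of the same number deviated together by a correlation of 0.0256 to 0.107 for slice cultures and −0.0539 to 0.107 for replicates. The labels do not say what the slice culture number marks. A VPA library without a CTR library of its number does not enter the difference in a blocked fit. This is VPA replicate 1 with the slice culture block and VPA replicate 4 with the replicate block.

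The log2 fold change of Itga1, near 0, changed sign to 0.076 with limma-voom, 0.0070 with upper quartile normalization and 0.16 with the slice culture block, and ran from −0.28 to 0.19 with each library left out. Its difference in log2 CPM became −0.043 with plain library totals and ran from −0.29 to 0.23 with each library left out. Signs of log2 CPM differences also changed among the ranges with a library left out for Itga5 (−0.77 to 0.14), Itga8 (−0.47 to 1.21), Itgb1 (−0.27 to 0.0024) and Itgb8 (−0.51 to 0.63). The direction of Itga2, Itga6, Itga9, Itgav and Itgb5 held in all alternatives run, but sizes moved. With each library left out the log2 fold change ran from −0.86 to −0.35 for Itgav and from −0.30 to −0.06 for Itga9. For Itga6 it ran from −1.78 to −1.05 and for Itgb5 from 0.27 to 0.56. Depth limits Itga5, Itga8 and Itgb8, which had too few counts for the filter of the main edgeR test and were fitted only in some alternatives.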
